A study of Mus musculus with 14 samples.

Results

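The let-7 precursor gene Mirlet7d, the let-7 host transcript Lncppara, the let-7 blockers Lin28a and Lin28b, and the let-7 targets Hmga2, Mycn, Trim71 and Igf2bp1 were examined in mouse embryonic stem cells (ESCs). These 8 genes were found by name. In RNA-seq, 7 of them had a row among 22376 rows, and Mirlet7d had none. In Degradome-seq, which captures RNA ends that carry a 5′ monophosphate (5′P), 2 of the 8 had a site, Mirlet7d and Igf2bp1. Each had 1 site, and both sites were in both tables, among 3919 sites of the Drosha comparison and 4666 of the Dicer comparison. The other 6 members had no listed site. By the paper's rule a position counts as a pile-up site only if classified so in both control libraries of that line. The tables hold more sites than the paper counted in control cells. Some listed sites had 0 reads in a control library, 1 and 8 sites in the Drosha controls and 6 and 8 in the Dicer controls. Selection was thus largely but not only on the controls, and how the further sites were chosen is not stated. The tables give no value for a position outside the list.

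Degradome-seq compared 2 control with 2 Drosha-deficient libraries and, in a second line, 2 control with 2 Dicer-deficient libraries. All 4 Drosha libraries came from Drosha fl/fl ESCs that carry a tamoxifen-activated Cre at the ROSA26 locus (CreERT2). The deficient cells received 100 nM 4-hydroxytamoxifen for 72 h and were taken 48 h after its removal, whereas their controls received no treatment, so the compound and the loss of Drosha cannot be told apart. The Dicer line was Dicer fl/fl ESCs transduced with a GFP retrovirus as control or with a GFP-Cre retrovirus, sorted for GFP after 3 days and cultured for 2 further days. The same Drosha line gave the 3 control and 3 Drosha-deficient RNA-seq libraries. Both lines grew in serum and LIF on mitotically inactive mouse fibroblasts, and only the Dicer line was sorted before harvest. Nothing in the labels says that replicates were separate cultures, so p-values measure the spread between these libraries.

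Between 28682300 and 34547609 reads were mapped per Degradome-seq library. Read starts were scaled to mapped reads as reads-per-million (RPM), so that 1 read was worth 0.0289 to 0.0349 RPM and a floor of 3 reads 0.0868 to 0.105 RPM (counting error only). Log2 fold changes were taken on RPM plus 0.1, deficient minus control, and tested with limma over all sites of a table. To be called, a site needed a false discovery rate (FDR) below 0.05 together with a change of more than 1.5 on the log2 scale. The median of all sites was −0.93 in the Drosha comparison and −0.12 in the Dicer comparison. In the former 1473 sites were called as decreased and 375 as increased, so that 79.7% of calls were decreases. This was 59.1% with each library centred on its median site and 44.9% with TMM scaling, the kind of scaling that the study used. These 2 moved the median of all sites by 0.59 and 0.90. Markers were read from the mean level over the 6 RNA-seq libraries. All 10 ESC markers ranked in the top 10% of genes per kb, Pou5f1 at 392 and Nanog at 250 counts-per-million (CPM) per kb. The 10 fibroblast markers ranged from 0.264 (Lum) to 20.7 CPM per kb (Acta2) with Col1a1 at 14.8, none in the top 10%, and the 6 markers of differentiated cells from 0.0765 (Sox17) to 14.9 (Tubb3). RNA-seq covered the Drosha line only, so these levels do not describe the Dicer line. How the markers divide between the groups was not tested, because no value per RNA-seq library was used. The loss of Drosha or Dicer itself was not tested here either. The paper measured both by qRT-PCR and reports that Drosha expression was ablated and that miRNAs were lost after Dicer1 inactivation.

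Mature let-7 is a family of small RNAs with a shared seed, the stretch at bases 2 to 8 that pairs with target mRNAs. A primary transcript is cut by Drosha with its partner Dgcr8 at the base of a stem-loop, and Dicer then removes the loop. Lin28a and Lin28b bind let-7 precursors and hold back their maturation in pluripotent cells, while let-7 in turn represses both Lin28 genes and growth-promoting genes such as Hmga2 and Mycn. Drosha releases a precursor with a 5′P on the downstream piece of the host RNA, which is the end that Degradome-seq ligates and sequences.

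The 9 different 5p miRNAs that the 12 let-7 family genes encode are shown to make the shared seed visible. Bases 2 to 8 are in capitals and the sequences are from RefSeq (GRCm38.p6).
let-7a: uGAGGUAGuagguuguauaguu
let-7b: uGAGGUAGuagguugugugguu
let-7c: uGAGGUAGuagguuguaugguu
let-7d: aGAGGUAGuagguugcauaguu
let-7e: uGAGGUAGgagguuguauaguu
let-7f: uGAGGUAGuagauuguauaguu
let-7g: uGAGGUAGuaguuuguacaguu
let-7i: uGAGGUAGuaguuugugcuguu
miR-98: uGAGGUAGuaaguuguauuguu

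All 9 hold the seed GAGGUAG, which 11 of the 1679 mature mouse miRNAs in that table share. The miRNA of Mirlet7d, let-7d, differs from the other 8 at 2 (let-7a) to 6 bases (let-7i), none of them in the seed.

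Mirlet7d lies at chr13:48536012-48536114 on the minus strand (GRCm38), in exon 2 of the 2-exon lincRNA 6720427I07Rik. That transcript carries Mirlet7a-1, Mirlet7f-1 and Mirlet7d in this order in the same exon, with 261 bases between the precursors Mirlet7a-1 and Mirlet7f-1 and 1714 between Mirlet7f-1 and Mirlet7d. Of the 12 family precursors 5 had a site, namely these 3, Mirlet7g in an intron of Wdr82 and Mir98 in an intron of Huwe1. Lncppara (chr15:85653616-85707524, plus strand) holds Mirlet7c-2 and Mirlet7b in an exon, 621 bases apart, and neither precursor had a listed site.

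The stem-loops of 4 precursors with a site are shown because the position of the site within them can be read directly. They come from the study's list of stem-loops with flanks of 15 bases and were placed on the genome without a mismatch. The study kept a stem-loop only where the site and the opposite small-RNA end formed a short 3′ overhang. Where the site pairs in the stem is therefore largely set by that rule. Capitals begin at the first base of the sequenced reads, the site.
Mirlet7d, chr13:48536010-48536114, minus strand: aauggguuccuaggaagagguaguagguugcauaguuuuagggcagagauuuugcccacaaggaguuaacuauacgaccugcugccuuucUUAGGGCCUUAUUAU
Mirlet7f-1, chr13:48537819-48537925, minus strand: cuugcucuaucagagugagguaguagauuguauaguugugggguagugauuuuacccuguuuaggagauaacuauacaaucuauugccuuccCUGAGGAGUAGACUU
Mirlet7a-1, chr13:48538174-48538275, minus strand: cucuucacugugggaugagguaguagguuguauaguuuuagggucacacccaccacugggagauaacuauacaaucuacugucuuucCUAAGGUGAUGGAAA
Mirlet7g, chr9:106178831-106178938, plus strand: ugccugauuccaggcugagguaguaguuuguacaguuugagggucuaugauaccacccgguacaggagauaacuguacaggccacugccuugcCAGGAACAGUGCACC

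Each let-7 site lay on the 3′ arm of its stem-loop. RNAfold paired the first base of the site with base 13 of the stem-loop in all 5, with minimum free energies between −43.4 (Mirlet7a-1) and −51.1 kcal per mol (Mirlet7g), and −49.4 kcal per mol for Mirlet7d. The Mirlet7d site, chr13:48536024, was the last base of the RefSeq let-7d-3p sequence rather than the base after it. The sites of Mirlet7f-1, Mirlet7a-1 and Mir98 were also at the last base of the 3p miRNA, and the Mirlet7g site was at the base after it. Among the 76 sites at other miRNAs that lay within 7 bases of a mature 3′ end, 51 were at the base after that end, 2 at its last base (Mir136 and Mir33) and 23 elsewhere. The authors trained their choice of sites on annotated miRNAs, with the base after the 3′ arm miRNA taken as a known cleavage site. The count at that base is therefore not independent of how sites were chosen. This comparison was made after the positions had been seen and was not tested. As background, most let-7 precursors of mammals are known to leave Drosha with a 1-base overhang that a terminal uridylyl transferase extends.

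A further feature of the family is the motif GGAG in the terminal loop, to which the zinc knuckles of Lin28 are known to bind. Searched on the sense strand between the annotated arms, it was in 9 of 12 let-7 family loops (75.0%) and in 53 of 645 mouse hairpins with both arms placed (8.22%). The loop of Mirlet7d is shown as an example with the motif in capitals.
Mirlet7d loop: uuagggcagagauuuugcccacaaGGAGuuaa

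Mirlet7b and Mirlet7c-2, the 2 precursors within Lncppara, lacked the motif. The letters alone do not show whether Lin28 was bound.

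The Mirlet7d site was not called in either line. In the Drosha line the controls had 12.3 and 5.17 RPM (353 and 151 reads) and the Drosha-deficient libraries 5.68 and 2.95 RPM (176 and 85 reads). The groups overlapped, since the higher deficient library was above the lower control. The means were 8.74 ± 5.05 and 4.32 ± 1.93 RPM (SD, n = 2 each), so that 49.4% was left. The log2 fold change was −0.94 ± 0.44 (SE, FDR = 0.0732, limma over all sites), at the 49.7th percentile of all sites of the table. A scaling shifts all sites nearly alike, so the distance of this site from their median was bound to stay similar. That distance lay between −0.04 and −0.01 under each of the 5 scalings, while the change itself ran from −1.21 (uniquely mapped reads) to −0.06 (TMM). Leaving out the control library with 12.3 RPM gave −0.33, and leaving out the other control −1.56. The FDR passed with uniquely mapped reads (FDR = 0.0149) and without the first deficient library (−1.40, FDR = 0.00802), with the change still under the fold threshold.

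In the Dicer line the Mirlet7d site had 6.92 and 9.85 RPM in the controls (239 and 338 reads) and in the Dicer-deficient libraries 9.22 and 8.49 RPM (273 and 278 reads). Both deficient values lay between the control values. The log2 fold change was 0.10 ± 0.35 (SE, FDR = 0.922), and its sign changed with scaling to uniquely mapped reads (−0.03) and without control replicate 1 (−0.15). The Drosha change minus the Dicer change was −1.04 ± 0.69 (SE) with FDR = 0.281 in a limma interaction over the 2595 shared sites, so a difference between the lines was not shown.

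**Figure D1:**
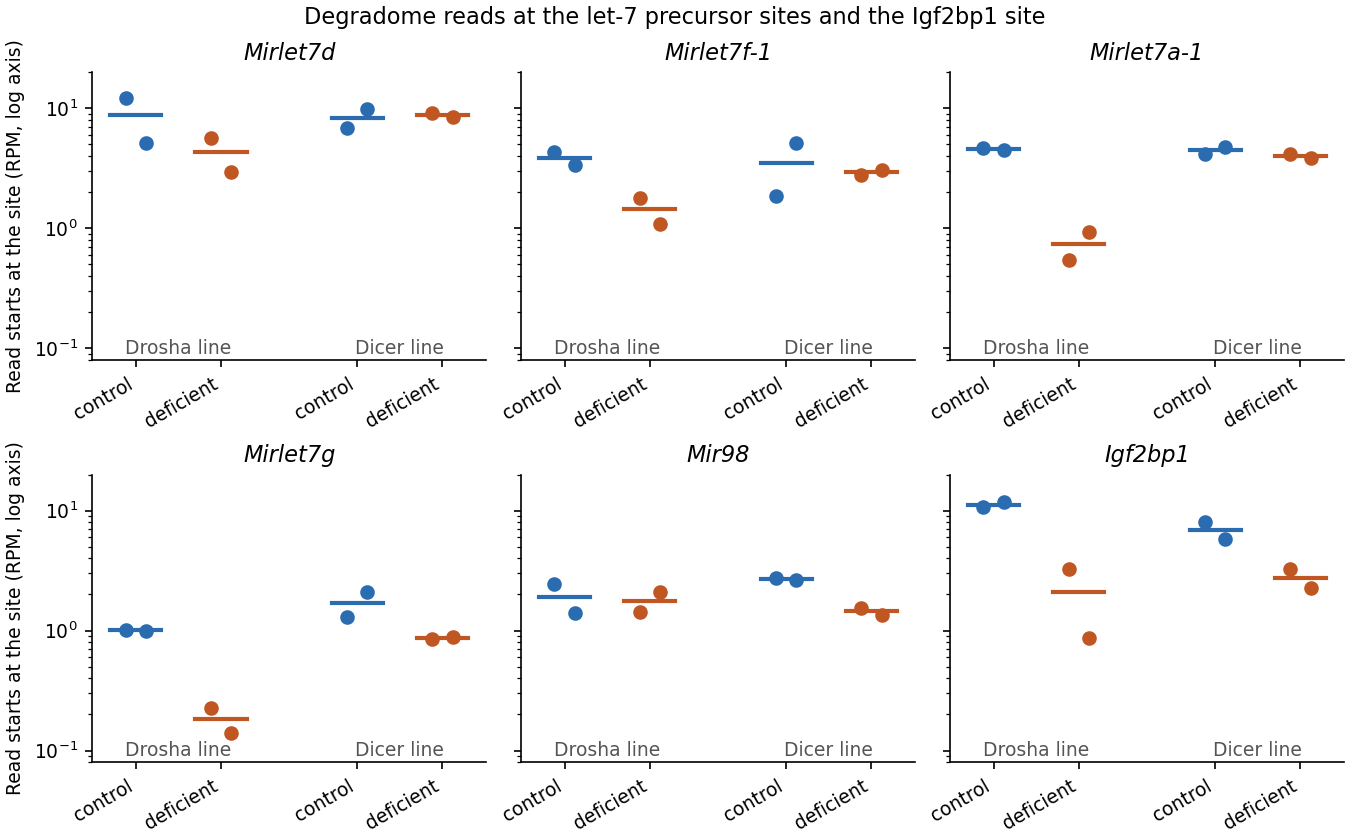
Read starts in RPM (log axis) at the 5 let-7 family sites and the Igf2bp1 site, for control (blue) and deficient libraries (orange) of the Drosha and Dicer lines. Points are libraries and bars group means of 2 libraries. The Drosha-deficient libraries lie below their controls at Mirlet7a-1 (0.548 and 0.938 against 4.67 and 4.52 RPM) and at Igf2bp1 (3.29 and 0.869 against 10.6 and 11.8 RPM), and overlap with them at Mirlet7d and Mir98.

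The other 4 let-7 sites differed in their change in the Drosha line. Mirlet7a-1 had 4.67 and 4.52 RPM in the controls and 0.548 and 0.938 RPM in the Drosha-deficient libraries (134, 132, 17 and 27 reads), a log2 fold change of −2.52 ± 0.43 (SE, limma FDR = 0.000151). The groups did not overlap, with 16.2% left. Mirlet7g, the least deep of the sites, had 1.01 and 0.992 RPM (29 and 29 reads) against 0.226 and 0.139 RPM (7 and 4 reads), a log2 fold change of −1.98 ± 0.58 (SE, FDR = 0.00678). Both were called as decreased, although Mirlet7g lost the call with a pseudocount of 1 RPM (−0.76), with centring on the median site (−1.39) and with TMM scaling in edgeR (−1.52, FDR = 0.0771).

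Mirlet7f-1 had 4.32 and 3.39 RPM in the controls and 1.81 and 1.08 RPM in the Drosha-deficient libraries (124, 99, 56 and 31 reads). Its groups did not overlap, and its log2 fold change of −1.39 ± 0.42 (SE, FDR = 0.009) passed the FDR but not the fold threshold. It was called without the first deficient library (−1.74) and with scaling to uniquely mapped reads (−1.66), and it passed the FDR in 9 of 15 alternatives, missing it for example without either control (FDR = 0.141 and 0.0731) and without the second deficient library (FDR = 0.0691). Mir98 had 2.44 and 1.40 RPM against 1.42 and 2.09 RPM (70, 41, 44 and 60 reads), which overlap. Its log2 fold change of −0.10 ± 0.45 (SE, FDR = 0.857) turned positive with centring on the median site (0.49) and with TMM scaling (0.85). Of the 5 family sites 2 were called as decreased and 0 as increased, with a median log2 fold change of −1.39. Of all 3919 sites 37.6% were called as decreased, and of the 93 sites that name a miRNA 63 were, with a median of −1.97. The share in the family (2 of 5) is near that of all sites.

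In the Dicer line 0 of the 5 family sites were called, as were 0 of all 4666 sites (0% decreased) with limma. At an unadjusted p under 0.05 there were 459 sites, 242 of them lower, and edgeR on the whole reads also called 0 in either direction. The paper, at the same thresholds, did call sites as lost in Dicer-deficient cells, so a count of 0 is not the study's result. The reason for this difference was not tested. The controls had 4.20 and 4.78 RPM at Mirlet7a-1 and the Dicer-deficient libraries 4.16 and 3.85 RPM, a log2 fold change of −0.16 ± 0.35 (SE, FDR = 0.877). Mirlet7f-1 differed more between its controls (1.85 and 5.16 RPM) than between the groups, with 2.77 and 3.09 RPM in the deficient libraries. At Mirlet7g the controls had 1.30 and 2.10 RPM and the deficient libraries 0.845 and 0.886 RPM, and at Mir98 2.72 and 2.62 RPM stood against 1.55 and 1.34 RPM. Neither passed the test, with log2 fold changes of −0.86 (FDR = 0.568) and −0.84 (FDR = 0.541).

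**Figure D2:**
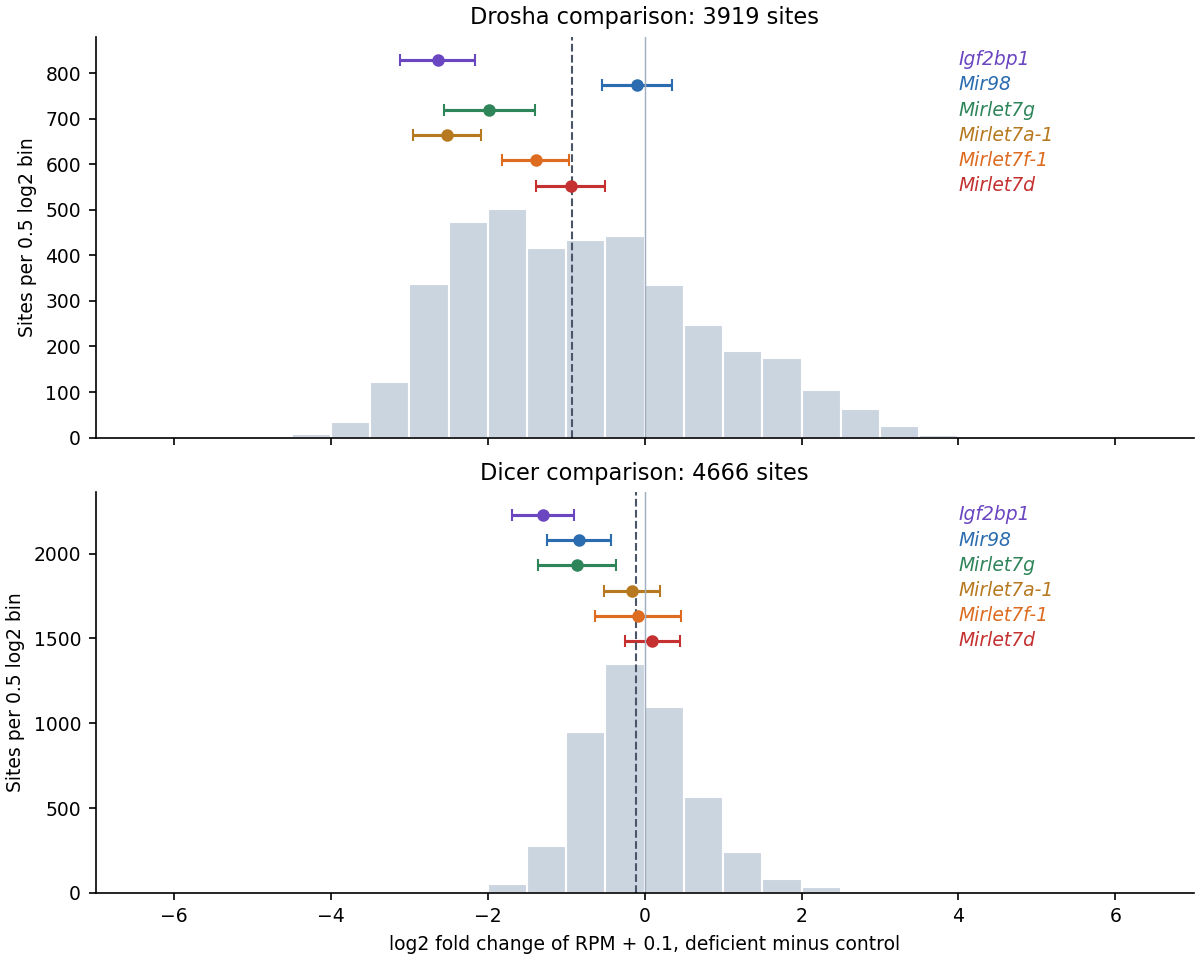
Histograms of the log2 fold change of all sites (grey, bins of 0.5) in the Drosha comparison (top, 3919 sites) and the Dicer comparison (bottom, 4666 sites), with the 5 let-7 family sites and Igf2bp1 above them as points with standard errors. The dashed lines are the medians of all sites, −0.93 and −0.12. Mirlet7d sits on the median of the Drosha comparison, Mirlet7a-1 and Igf2bp1 lie in its lower tail at −2.52 and −2.64.

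The change of Mirlet7a-1 differed between the lines by −2.36 ± 0.53 on the log2 scale (SE, FDR = 0.0467 in the limma interaction), and those of the other 5 family and member sites did not pass this test without a replicate block. Of all shared sites 1.7% were lower by this test. The call was lost in 8 of 11 alternatives, among them centring on the median site (−1.84, FDR = 0.0533), a pseudocount of 1 RPM (−1.56, FDR = 0.0502) and leaving out any Drosha library.

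The 3 sites of 6720427I07Rik come from the same exon, so their ratio within a library does not depend on the scaling. Mirlet7d over Mirlet7a-1 was 2.63 and 1.14 in the controls of the Drosha line and 10.4 and 3.15 in the Drosha-deficient libraries. In the Dicer line it was 1.65 and 2.06 in the controls and 2.22 and 2.21 in the deficient libraries. Both deficient ratios were above both control ratios in either line, by 1.72 on the log2 scale in the Drosha line and 0.26 in the Dicer line. Mirlet7f-1 over Mirlet7a-1 was also higher in both Drosha-deficient libraries (3.29 and 1.15 against 0.925 and 0.75), whereas Mirlet7d over Mirlet7f-1 overlapped between its groups (2.85 and 1.53 against 3.14 and 2.74). With 2 libraries against 2, the two-sided exact permutation test cannot go below p = 0.333, which is the p of the first ratio in both lines. These 3 ratios were formed after the values of the sites had been seen.

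**Figure D3:**
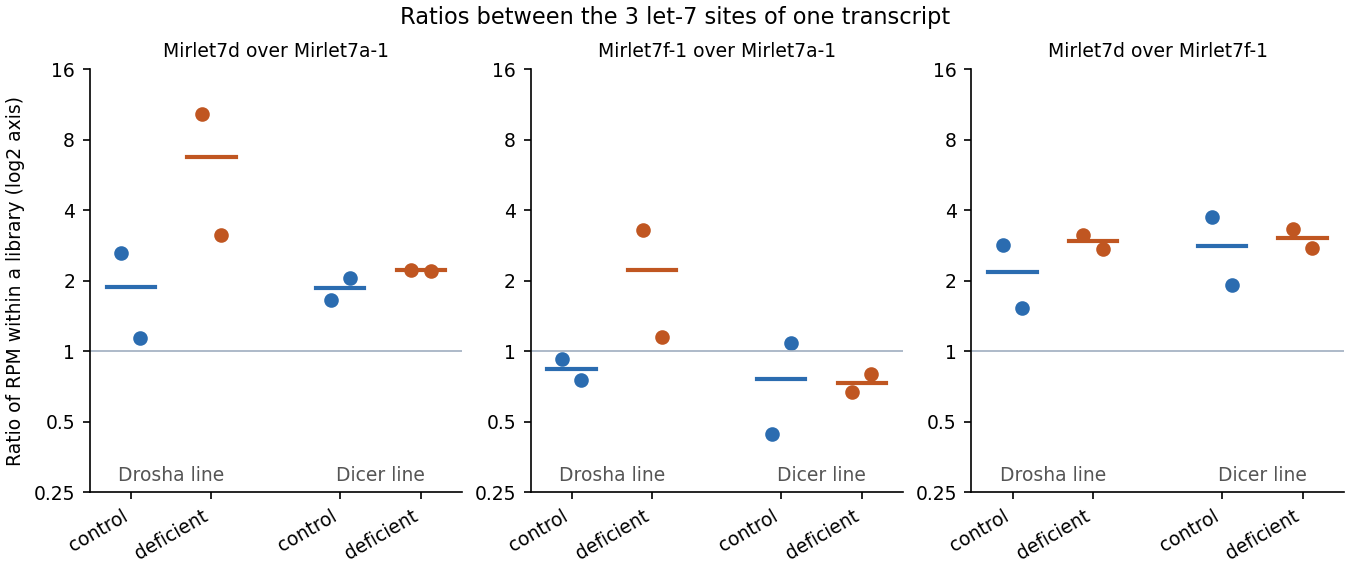
Ratios of RPM within each library (log2 axis) between the 3 let-7 sites on 6720427I07Rik, for control (blue) and deficient libraries (orange) of the Drosha and Dicer lines. Points are libraries and bars the means of 2 libraries. Mirlet7d over Mirlet7a-1 reaches 10.4 and 3.15 in the Drosha-deficient libraries and 2.63 and 1.14 in the controls of that line.

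Igf2bp1 encodes an RNA-binding protein that stabilises mRNAs in early development and is itself a let-7 target. Its site was in the coding sequence and not in the 3′ UTR, where the seed matches given below were counted. Binding of let-7 was not measured. The read starts began at chr11:95969972 on the minus strand, in coding exon 9 of the 15-exon transcript, which is the only 1 of 5 annotated transcripts to span it, at base 13 of the exon and codon 318. No let-7 seed match of 6, 7 or 8 bases was within 100 bases on either side. The study's stem-loop around the site is shown because the site falls elsewhere in it than in the let-7 precursors. The exon starts at chr11:95969984 and the stem-loop reaches back to chr11:95969997. Its first bases are therefore intron, absent from the spliced mRNA, and the fold crosses the splice junction.
Igf2bp1, chr11:95969896-95969997, minus strand: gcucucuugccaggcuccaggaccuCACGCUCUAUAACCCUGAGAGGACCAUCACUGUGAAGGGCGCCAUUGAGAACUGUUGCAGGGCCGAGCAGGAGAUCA

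Capitals again begin at the site, which is base 26 of 102 and in the fold lies on the 5′ arm, paired with base 72. In the let-7 stem-loops the site left only the added flank of 15 bases, and here it left 77. The fold had a minimum free energy of −36.1 kcal per mol and paired 62.7% of the bases, against 75.2% to 80.4% in the 5 let-7 stem-loops. The RNA linker ends in tct, and only an exact match to these 3 bases was sought, so a partial match was not tested. The reference bases before the site (cct) were not this linker end, which preceded 1321 of 5988 sites (22.1%). None of the let-7 sites had it either, and the first 30 bases at each of the 6 sites occurred 1 time in the genome.

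The Igf2bp1 site fell in the Drosha line. The controls had 10.6 and 11.8 RPM (305 and 345 reads) and the Drosha-deficient libraries 3.29 and 0.869 RPM (102 and 25 reads). The groups did not overlap, and the deficient libraries differed more from each other than the controls did. The means were 11.2 ± 0.827 and 2.08 ± 1.71 RPM (SD, n = 2 each), with 18.5% left. The log2 fold change was −2.64 ± 0.48 (SE, limma FDR = 0.00023), at the 9.85th percentile of all sites and 1.71 below their median. Of the 2 member sites 1 was thus called as decreased, where 37.6% of all sites were, and 1 had both controls above both deficient libraries, where 59.9% of all sites did. Without the second deficient library (0.869 RPM) the change was −1.74, and without either control it kept its size (−2.72 and −2.57) but not the call (FDR = 0.0503 and 0.0547).

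In the Dicer line the Igf2bp1 site also had both controls (7.99 and 5.83 RPM, 276 and 200 reads) above both deficient libraries (3.28 and 2.26 RPM, 97 and 74 reads). This was so at 27.4% of all sites. The log2 fold change of −1.29 ± 0.40 (SE) was at the 2.94th percentile of the table, with a limma FDR of 0.469, so it was not called. The difference between the lines was −1.35 ± 0.79 (SE, FDR = 0.23 in the limma interaction). The Igf2bp1 values thus did not show that the site changed differently without Drosha than without Dicer.

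Other genes of the pathway were read from lists of let-7 processing and turnover (15 symbols), host transcripts (7) and further targets (29). In the processing list Zcchc11 and Zcchc6 are older symbols of Tut4 and Tut7, so it holds 13 genes. In the Drosha table the first list had 5 sites in 2 genes, of which 2 were called as decreased, with a median of −1.16, a share near the 37.6% of all sites. At chr4:108478913 in Tut4, a uridylyl transferase that Lin28 recruits to let-7 precursors, 14.1 and 14.6 RPM in the controls stood against 4.42 and 4.52 RPM (log2 fold change −1.66 ± 0.35, SE, FDR = 0.000682). At chr16:18284563 in Dgcr8 11.9 and 9.75 RPM stood against 1.61 and 2.71 RPM (−2.31 ± 0.39, SE, FDR = 0.000122). With TMM scaling neither passed the fold threshold (−0.75 and −1.35), and Tut4 also missed it with centring on the median site (−1.07) and with a pseudocount of 1 RPM (−1.49). The remaining 3 sites, 1 in Tut4 and 2 in Dgcr8, had log2 fold changes between −0.56 and −1.16 and were not called.

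In the Dicer table the same list had 4 sites in Tut4, Dgcr8 and Syncrip, with a median of −0.52 and 0 called. The Tut4 site at chr4:108478913 had 9.81 and 8.04 RPM in the controls and 5.41 and 3.42 RPM without Dicer (−1.03 ± 0.39, SE, FDR = 0.484), so that its groups did not overlap in either line. The Dgcr8 site had 5.61 ± 0.561 RPM against 4.30 ± 0.443 RPM (SD, n = 2 each, −0.38, FDR = 0.69), and its change differed between the lines by −1.93 ± 0.52 (SE, FDR = 0.0586 in the limma interaction), which missed the threshold but passed it without the first Dicer control (−1.83, FDR = 0.0334). Among hosts, 1 of 4 sites was called in the Drosha table, that of Mirlet7a-1, where 37.6% of all sites were, and 0 of 4 in the Dicer table, where 0% were. The Huwe1 site outside the precursors, chrX:151927725, had 5.61 and 4.21 RPM against 1.87 and 1.74 RPM in the Drosha line (−1.38 ± 0.40, SE, FDR = 0.00609) and passed the FDR only. It was called without the second control (−1.59, FDR = 0.0486) and with uniquely mapped reads (−1.65), and missed the FDR without the first control (FDR = 0.107), with centring (FDR = 0.0519), with TMM (FDR = 0.188) and in 1 fit of the 8 libraries (FDR = 0.0643). Of the 29 further targets only Igf2bp3 had a site, in the Dicer table alone, at 1.65 and 1.72 against 0.946 and 1.28 RPM (−0.57, FDR = 0.654).

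For the Mirlet7d site, the member site with the most reads (a mean of 7.57 RPM over 8 libraries), the 5 most alike profiles were sought among 2434 shared sites. Likeness was the root mean square difference of centred log2 values over the 8 libraries, which share depth and scaling. The nearest, at 0.156, was at chr17:39842999 with no gene named. It was followed by sites in Abce1 (0.214), Mir5099 (0.247), Taf1d with Gm49349 (0.247) and S100a13 (0.251), of which none is in the let-7 family. Their changes in the Drosha comparison lay between −0.88 and −0.67 on the log2 scale.

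Of the RNA-seq table only the mean log2 CPM over the 6 libraries was used, which the authors deposited without a spread and which therefore allows no test between groups or between genes. Levels are given per kb of the union of a gene's exons. Of the 7 members with a row 6 lay above the median of all genes, which was 1.05 on the log2 scale of CPM per kb, and 1 was in the top 10%. Igf2bp1 was highest at 34.8 CPM per kb (log2 5.12, the 92.1st percentile of genes with a length). It was followed by Mycn, a MYC family transcription factor, at 23.7 (log2 4.57), by Trim71, a let-7 target that represses mRNAs in stem cells, at 19.1 (log2 4.25), and by Lin28a at 15.6 (log2 3.97).

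A gap separated these 4 from the rest. Lin28b, which blocks let-7 like Lin28a, stood at 2.97 CPM per kb (log2 1.57), so that Lin28a was 5.25 times higher by this length and 3.57 times higher by the longest transcript. Lncppara stood at 2.30 (log2 1.20, the 51.5th percentile), close to the median of all genes. Hmga2, a chromatin protein of growing embryonic tissue, was lowest at 0.59 CPM per kb (log2 −0.76, the 33.8th percentile), and Igf2bp1 was 59.1 times above it, or 38.4 times by the longest transcript. With the length of the longest transcript the order of the 7 was the same, and only Lin28b (4.99) and Hmga2 (1.05) moved by more than 1.5-fold.

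**Figure D4:**
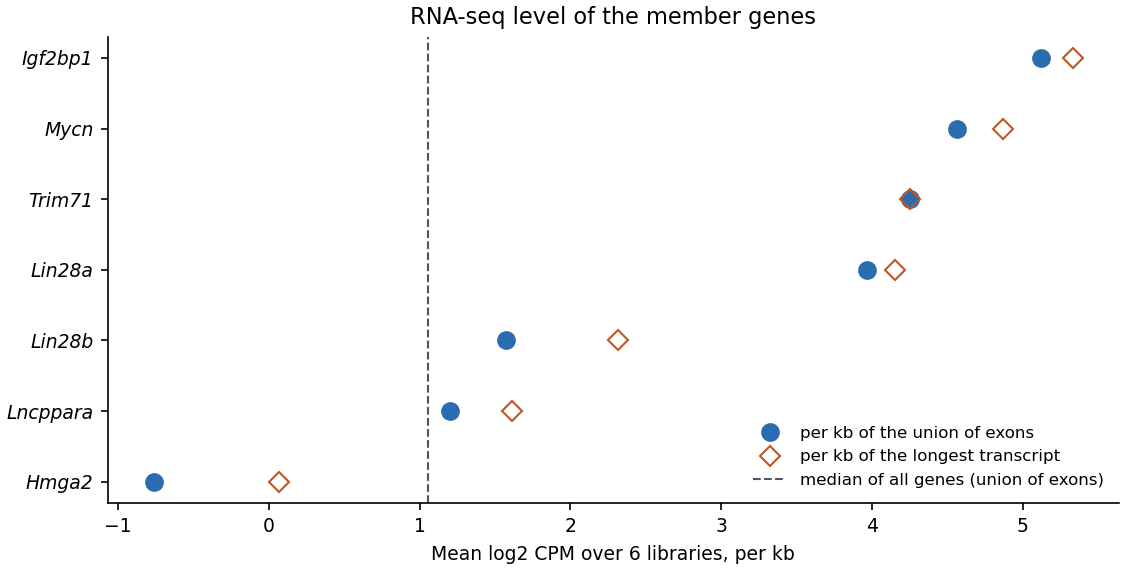
Mean log2 CPM over the 6 RNA-seq libraries per kb for the 7 members with a row, by the union of exons (filled circles) and the longest transcript (open diamonds). The dashed line is the median of all genes, 1.05. Igf2bp1, Mycn, Trim71 and Lin28a lie between 3.97 and 5.12, and Hmga2 at −0.76. No spread is drawn because the deposited value is a mean.

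The host of the Mirlet7d cluster, 6720427I07Rik, stood at 5.00 CPM per kb (log2 2.32), above Lncppara. Of the processing list every gene had a row under its current symbol. All 13 lay above the median of all genes, from Tut7 (3.93 CPM per kb) to Ddx5 and Ddx17 (103 each), with Drosha at 16.1, Dgcr8 at 15.1 and Dicer1 at 9.21. Of the 29 further targets, of which Col1a2 and Col3a1 are also fibroblast markers and Dicer1 is on the processing list, 22 lay above that median. Among them Hmga1 (141 CPM per kb) and Cdc34 (131) were highest, and Igf2bp2 (26.9) and Igf2bp3 (17.5), the paralogues of Igf2bp1, were below Igf2bp1 (34.8), although by the longest transcript Igf2bp2 (40.2) and Igf2bp1 (40.3) were level. Myc stood at 0.158, far under Mycn. Of the 7 listed hosts 5 had a row, and 4 lay above the median. Of the 12 family precursors 3 had a row of their own, at 0.225 CPM or less, which is too few reads to read a level from.

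The 6 coding members hold matches to the let-7 seed in their 3′ UTRs. They were chosen as let-7 targets or as its blockers, so the counts describe the members and are no independent result. Matches were counted in the longest annotated 3′ UTR on the sense strand as an 8mer (CTACCTCA), a 7mer-m8 (CTACCTC without the following A) or a 7mer-A1 (TACCTCA without the preceding C), so that no match counts as more than 1. Of 21671 coding genes 2.97% held an 8mer and 14.4% any of these. The 5 coding members with an 8mer are shown with the one nearest to the stop codon in capitals, which lets the sites be compared with the seed above.
Lin28a, chr4:134005178-134005207, minus strand: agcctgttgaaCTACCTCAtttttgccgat
Lin28b, chr10:45381011-45381040, minus strand: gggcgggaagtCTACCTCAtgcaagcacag
Hmga2, chr10:120364213-120364242, minus strand: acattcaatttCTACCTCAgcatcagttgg
Trim71, chr9:114512461-114512490, minus strand: ttgcctaagtcCTACCTCAgcttaaatttt
Igf2bp1, chr11:95961767-95961796, minus strand: tgcgaagtaaaCTACCTCAaggtgtgaagt

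Trim71 had 4 8mers and 2 7mers in 5515 bases, and none of 834 genes with a 3′ UTR of like length (0.8 to 1.25 times) had as many 8mers. Igf2bp1 had 3 8mers and 2 7mers in 6340 bases, and Lin28a 2 8mers in 2778 bases. Hmga2 had the most matches in all, 1 8mer and 6 7mers in 3017 bases, a total that 0.0819% of the 2443 genes of like length reached. Lin28b had 1 8mer and 4 7mers in 4448 bases, and Mycn 2 7mer-A1 matches in 916 bases and no 8mer.

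**Figure D5:**
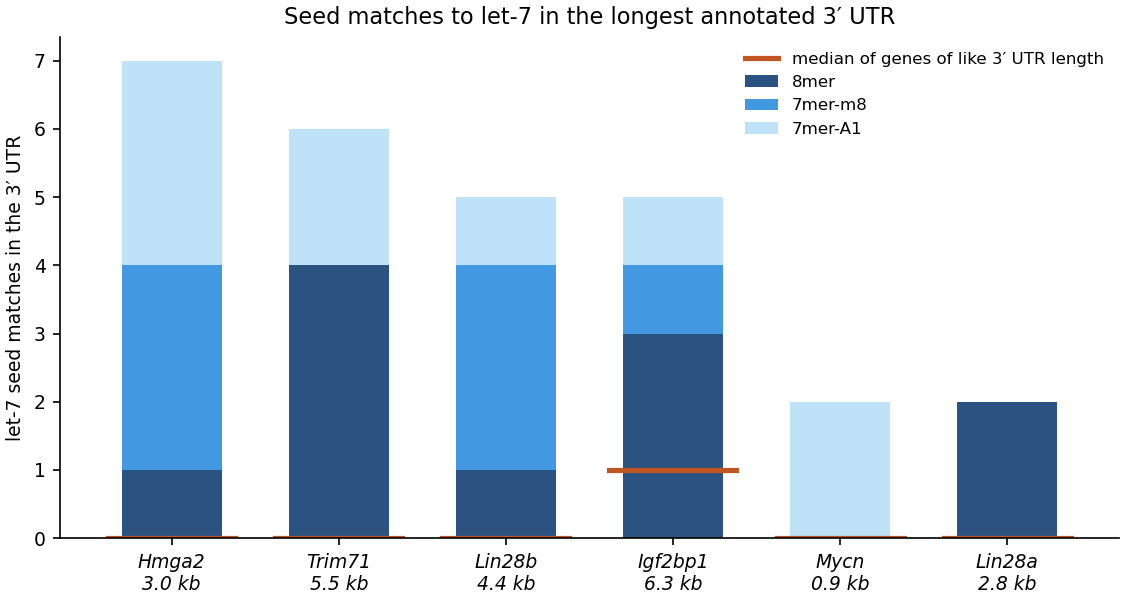
Number of let-7 seed matches in the longest annotated 3′ UTR of the 6 coding members, stacked by type (8mer, 7mer-m8, 7mer-A1), with the length of the 3′ UTR under each name. The orange lines are the medians of genes of like length, 1 for Igf2bp1 and 0 for the others. Hmga2 has 7 matches, Trim71 6, Lin28b and Igf2bp1 5 each, and Mycn and Lin28a 2 each.

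The order of the members by matches was not their order by level. Hmga2, with the most matches, was the lowest in RNA-seq, while Trim71 and Igf2bp1, with the most 8mers, were among the highest. These are 6 genes, and no correlation was computed.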

How the data were processed

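Per the labels and methods, the authors trimmed the Degradome-seq reads with Trimmomatic 0.38.0, aligned them to GRCm38 with STAR, counted read starts per position and strand, chose pile-up sites in both control libraries with a classifier, and deposited RPM of mapped reads per library, with replicates kept apart. For RNA-seq they deposited the mean log2 CPM of each gene over the 6 libraries. Both kinds of table also hold the authors' own log2 fold changes, p-values and FDRs from edgeR 3.26.1 (with an F statistic for RNA-seq), which were not used. For the Degradome-seq sites the authors scaled the read counts by TMM before that test. At the same thresholds the paper called fewer sites as decreased in the Drosha comparison than the 1473 here.

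Multiplied by the mapped reads of each library, 100% of the RPM values were whole within 0.02 reads. The main test was limma 3.58.1 with a mean-variance trend on log2 of RPM plus 0.1, adjusted by Benjamini and Hochberg over each table, and a limma interaction at the 2595 shared sites. edgeR 4.0.16 on the whole reads, an alternative, called 1525 sites as decreased and 384 as increased in the Drosha table and 0 and 0 in the Dicer table. On simulated data with 200 changed sites, limma recovered 100% in the Drosha, Dicer and interaction fits. It called 0 of 3719, 0 of 4466 and 12 of 2395 unchanged sites in these fits. How the spread in those data compares with the spread between the real libraries was not tested. The share of real differences that these libraries could reveal was not tested, and neither was the share of false calls in them.

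Positions are the first base of the reads, counted from 1. Genes, exons and 3′ UTRs came from GENCODE vM21, miRNAs from RefSeq, folds from RNAfold 2.7.2, and exon lengths were found for 22353 RNA-seq rows. The members, the lists and the rule for named sites (all member sites, the listed genes and the 5 most alike profiles) were chosen with earlier results of these data known. Alternatives changed the pseudocount, filter, trend, scaling, centring, threshold, block, libraries, tool and transcript length. A sequence of 1 family precursor is not reported here.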

Additional observations from a re-analysis of the deposited data

Results flagged for a closer look

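The Mirlet7a-1 site changed by −2.36 more on the log2 scale in the Drosha comparison than in the Dicer comparison (FDR = 0.0467 in the limma interaction over 2595 shared sites). It was flagged because the difference between the 2 lines passed its own test, which neither member site did. Both Drosha-deficient libraries were lower than both controls, whereas in the Dicer line the groups were 4.20 and 4.78 against 4.16 and 3.85 RPM. Over the 11 alternatives the FDR ranged from 3.00e-05 to 0.16, and 3 of them were under 0.05.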

How the results depend on the processing

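In all, 485 values were recomputed under alternatives, and 283 of single sites kept their direction and their side of the threshold. A further 134 of counts and member values were rated as unchanged. For counts and RNA-seq levels this rating allowed a limited fold difference. With a pseudocount of 1 RPM, 265 increased sites in place of 375 in the Drosha comparison were thus rated as unchanged. With 1473 sites called as decreased and 375 as increased in the Drosha comparison, a pseudocount of 1 RPM left 548 decreased, centring on the median site 871 decreased and 602 increased, edgeR with TMM (chosen after seeing the data) 636 and 780, and 1 fit of 8 libraries, with fewer sites tested, 660 decreased. Leaving out 1 library gave 907 to 1519 decreased and 264 to 463 increased, and in the Dicer comparison 0 to 1 and 0 to 13. For the difference between the lines, 44 lower and 80 higher sites became 123 and 287 with centring, and 0 to 726 and 0 to 243 without 1 library. Igf2bp1 in the Drosha comparison ranged from −3.54 to −1.74 without 1 library and was not called without either control. Mirlet7d in the Dicer comparison was −0.034 with uniquely mapped reads and −0.15 to 0.35 without 1 library. Among other sites, Mir98 in the Drosha comparison turned to 0.49 (centring) and 0.85 (TMM) and ranged from −0.48 to 0.28 without 1 library. In the Dicer comparison the Huwe1 site ranged from −0.89 to 0.31 and Mirlet7f-1 from −0.80 to 0.63. By the longest transcript Lin28b stood at 4.99 and Hmga2 at 1.05 CPM per kb. The causes were not tested.

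The labels do not say that a replicate number marks a shared culture, and with 2 pairs a line the numbers do not show it (correlation of the replicate deviations 0.13 in the Drosha and 0.53 in the Dicer libraries). With a replicate block the Dicer comparison called 67 sites as decreased and 119 as increased, and the difference between the lines 934 lower and 386 higher. For Igf2bp1 that difference was −1.35 with FDR = 0.0146, and its Dicer change had FDR = 0.0436 and was still under the fold threshold. The block also brought the difference between the lines under the FDR threshold for Mirlet7f-1 (−1.31, FDR = 0.027) and Dgcr8 (−1.93, FDR = 0.000282), and the Drosha change of Mirlet7d, which stayed under the fold threshold (FDR = 0.00694). Depth limits Mirlet7g most, with 4 to 29 reads per Drosha library.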
